A study of Mus musculus with 2 samples.

Results

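Fibroblast growth factors (FGFs) and their receptors were followed in 2 single-cell libraries of mouse intestinal stroma through 9 genes, the ligand genes Fgf1, Fgf2, Fgf7, Fgf9, Fgf10 and Fgf18 and the receptor genes Fgfr1, Fgfr2 and Fgfr3. The 9 genes were chosen by name, as the FGF ligands and receptors to be read in this stroma, and all 9 were found among the 31053 genes of both count matrices. They are described across fibroblast sub-clusters, endothelial cells and the other cell classes, and between the libraries.

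One library (ApcMin) came from mice of genotype ApcMin/+; Lef1 +/+, and the other (VApcMinL) from mice of genotype ApcMin/+; Lef1 fl/fl; Villin-Cre. Both genotypes carry the ApcMin allele, so neither library is a wild-type control, and Villin-Cre acts in the intestinal epithelium, so the stromal cells themselves were not the cells targeted for deletion of the transcription factor gene Lef1. The mice were C57BL/6 and labelled as 11 weeks old, an age that the sources used here do not give alike throughout, and DAPI- Ter119- Epcam- CD45- lamina propria cells were sorted from the intestine and sequenced with 10x 3' v3 chemistry. How many mice were pooled per library is not stated in the sources used here. With 1 library per genotype there was no test between genotypes, and a difference between the libraries cannot be told apart from differences of mice, dissection or library preparation.

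FGFs are secreted ligands that bind receptor tyrosine kinases together with heparan sulfate, and the receptors signal through the adaptor FRS2 to the RAS-MAPK pathway, which in turn induces inhibitors such as the Sprouty proteins and DUSP6. In the gut, FGF7 and FGF10 from mesenchyme are known to act on an epithelial splice form of FGFR2, whereas FGF9 and FGF18 act mainly on the splice forms of mesenchyme. Tags at the 3' end of a transcript, as counted here, cannot separate these splice forms.

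The 250 bases before a RefSeq start of Fgf7, Fgf10 and Fgfr2 are shown because the results on fibroblast sub-clusters and on the libraries turn on these genes. The sequences are from the RefSeq promoter table on GRCm38.p6, 5' to 3' on the strand of the gene, with capitals marking a match to a forkhead motif (TGTTTAC, either strand). The windows are chr2:126034408-126034657 on the plus strand for Fgf7, chr13:118714449-118714698 on the plus strand for Fgf10 and chr7:130266809-130267058 on the minus strand for Fgfr2.
Fgf7: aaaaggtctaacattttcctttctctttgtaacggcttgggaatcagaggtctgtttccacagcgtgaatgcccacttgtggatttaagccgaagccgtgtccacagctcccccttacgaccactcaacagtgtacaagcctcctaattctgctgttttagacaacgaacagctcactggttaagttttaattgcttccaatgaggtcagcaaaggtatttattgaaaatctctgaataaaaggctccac
Fgf10: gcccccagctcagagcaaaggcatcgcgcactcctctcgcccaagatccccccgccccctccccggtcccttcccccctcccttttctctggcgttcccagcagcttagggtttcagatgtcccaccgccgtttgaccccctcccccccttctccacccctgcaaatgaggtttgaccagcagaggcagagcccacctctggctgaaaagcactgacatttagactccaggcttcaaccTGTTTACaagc
Fgfr2: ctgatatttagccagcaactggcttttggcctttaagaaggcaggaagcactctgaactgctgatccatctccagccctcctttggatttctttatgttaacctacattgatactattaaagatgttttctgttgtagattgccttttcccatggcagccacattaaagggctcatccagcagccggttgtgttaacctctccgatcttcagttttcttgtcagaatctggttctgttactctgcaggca

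The table held promoters for 7 of the 9 genes, Fgf1 and Fgfr1 being the genes with none. Motif letters were searched on both strands for a forkhead factor (TGTTTAC), TCF/LEF factors (CTTTGA), GLI factors (GACCACC) and an E-box (CAGCTG), which occurred in 3.17%, 13.8%, 2.34% and 13.0% of 32851 promoters of this length. Among the 7 genes the matches were 1 forkhead match before Fgf10 and 1 E-box match before 1 of the 2 Fgfr3 starts, and the other windows held none of the 4 strings. GC content was 61.2% before Fgf10, 43.6% before Fgf7 and 44.0% before Fgfr2, beside a median of 52.4% over all promoters. The full gene models on GRCm38 are on chromosome 13 from 118669791 to 118792115 for Fgf10, on chromosome 2 from 126034658 to 126091185 for Fgf7, and on chromosome 7 from 130162451 to 133123350 for Fgfr2. The RefSeq starts used for the windows of Fgf10 and Fgfr2 lie inside these models, downstream of where the models begin, so the windows are not those of the most upstream starts. The Fgfr2 model spans other counted genes on its own strand, Ate1, Oat and Ctbp2 among them, so reads in shared stretches are uncertain for Fgfr2. Fgf2 (chromosome 3, 37348346 to 37410108) overlaps Nudt6 on the other strand, and on its own Gm43439, which is not among the counted genes. Fgf1, Fgf7, Fgf9, Fgf10, Fgfr1 and Fgfr3 also overlap genes on the other strand. How reads in such stretches were assigned is not given in the sources used here.

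After cells with at least 3000 UMIs (counted transcript molecules) and at most 20% mitochondrial UMIs were kept and doublets were left out, 6251 ApcMin and 6224 VApcMinL cells remained, from libraries of 93203061 and 101609269 UMIs. The mitochondrial limit left out 75 ApcMin barcodes (1.12% of those with at least 3000 UMIs) and 531 VApcMinL barcodes (7.48%). The kept cells held 77.4% of the ApcMin and 68.7% of the VApcMinL UMIs. Median depth was 10709 and 8932 UMIs per cell, and 17 cell barcodes were shared by the libraries. In all, 13 classes were named from marker genes that did not include the 9 genes, of which fibroblast-like cells were the largest with 3193 and 3563 cells (51.1% and 57.2%). Blood cells remained despite the sort, with 1363 and 359 erythroid-like cells, and epithelial-like cells numbered 26 and 280. Lef1, counted from 3' tags that need not lie in the deleted part, had 0 UMIs in the ApcMin and 3 in the VApcMinL epithelial-like cells, so it gave no check of the genotype labels.

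Levels are given as CPM, the UMIs of a gene per 1000000 UMIs summed over the cells of a group, with exact 95% Poisson intervals that cover counting error only and not variation between mice. B-, plasma- and erythroid-like cells, summed as blood-line cells that should lack these genes, gave the background within each library. In these 2467 and 1237 cells, with median depths of 6951 and 5110 UMIs, the 9 genes lay between 0 and 0.848 CPM in ApcMin and between 0 and 3.68 CPM in VApcMinL, both upper values being those of Fgfr1, which was detected in 0.608% and 1.54% of cells. Empty droplets carried free RNA of all 9 genes, between 0.830 CPM for Fgfr3 and 35.7 CPM for Fgfr1 in ApcMin and between 1.55 CPM for Fgf18 and 44.8 CPM for Fgfr1 in VApcMinL, and free RNA, estimated from the level of epithelial marker genes, made up 2.62% and 2.35% of the UMIs of fibroblast-like cells. The same estimate came to 100% and 27.9% in mesothelial-like and 100% and 75.2% in myeloid-like cells. Mesothelium is known to express keratin genes that are on the marker list, so what share of its UMIs was free RNA was not tested. At a resolution of 0.5 the myeloid-like class had 244 and 190 cells in place of 254 and 215. A further epithelial-like cluster of 10 and 27 cells then appeared, with median depths of 84940.5 and 38503 UMIs. The myeloid-like class can thus hold epithelial-like cells, and its share of free RNA was not tested either. Empty droplets held Fgf1 at 6.09 and 4.85 CPM, Fgf2 at 16.3 and 10.9 CPM, Fgf7 at 11.3 and 14.7 CPM, Fgf9 at 4.98 and 2.33 CPM and Fgf18 at 3.60 and 1.55 CPM, for comparison with those classes.

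**Figure D1:**
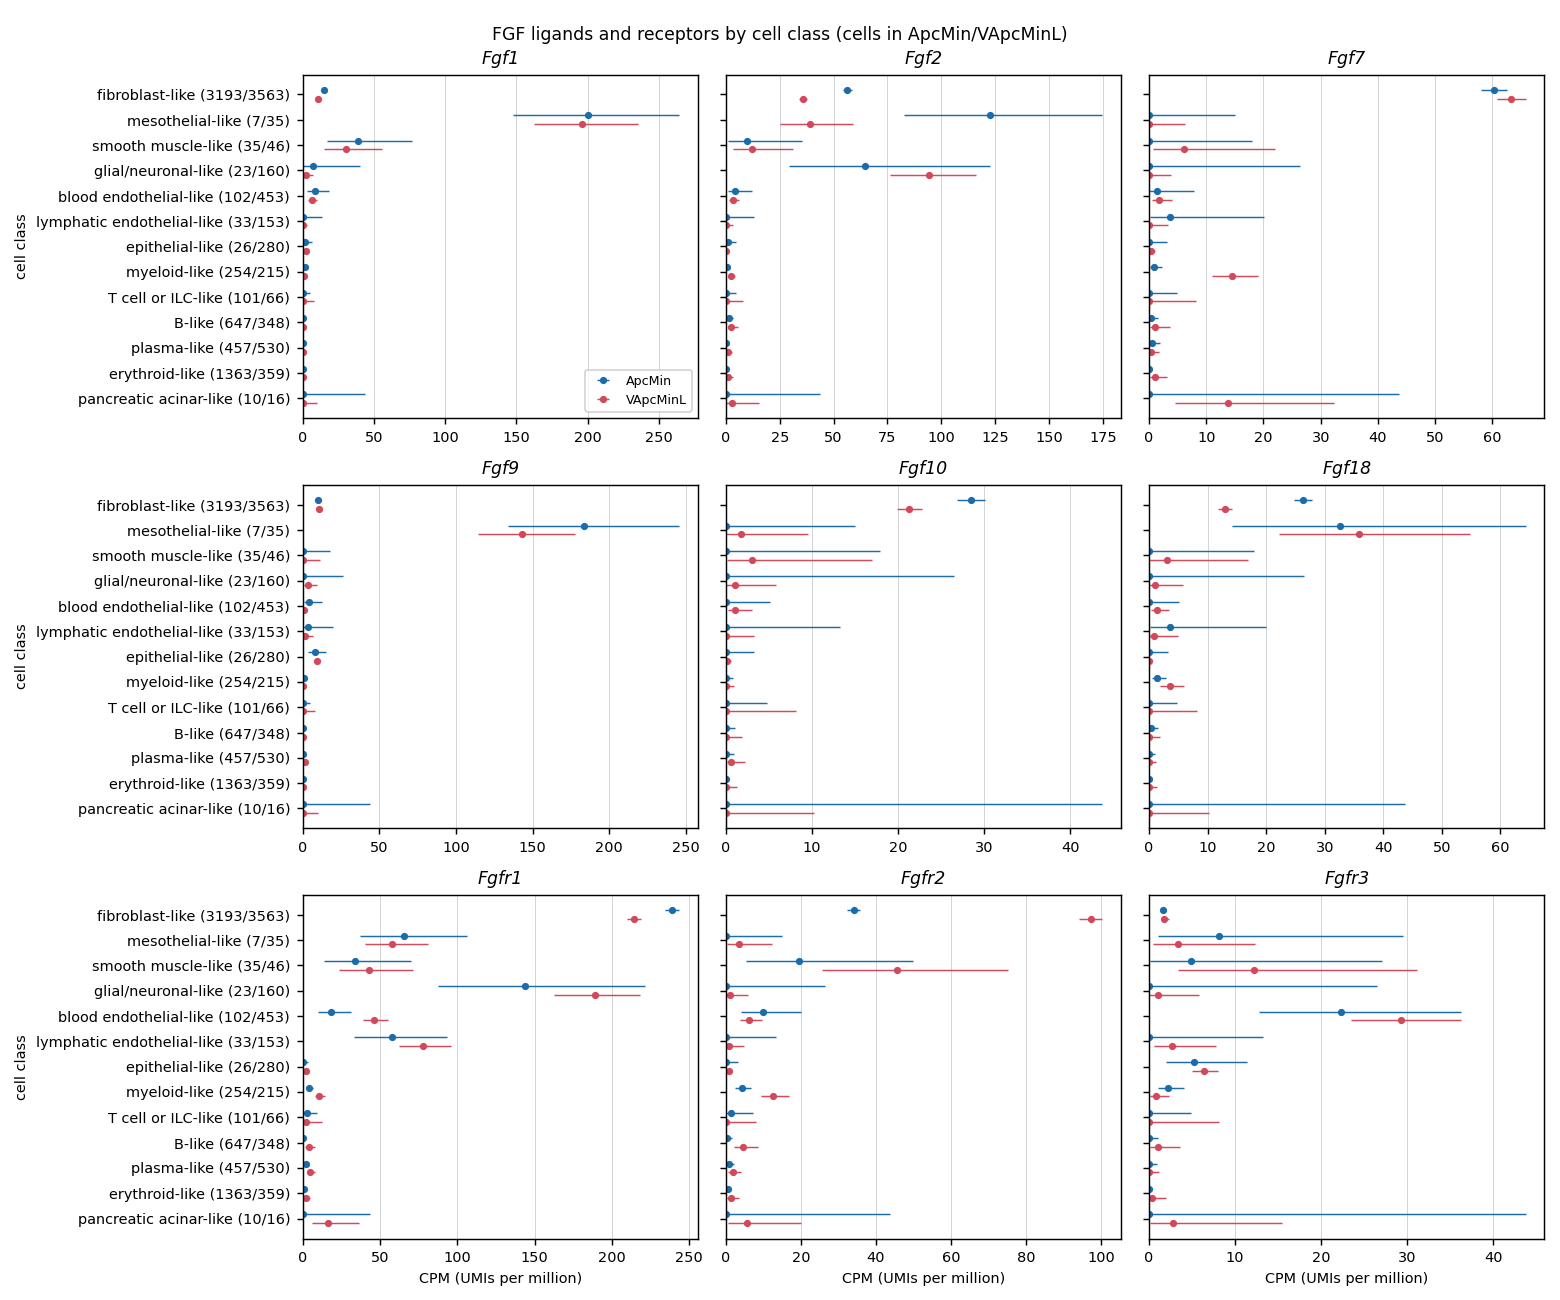
Level of each FGF ligand and receptor gene (CPM, linear axis) in the named cell classes of the ApcMin and VApcMinL libraries; points are the summed UMIs of a class in 1 library and bars are exact 95% Poisson intervals. By value, Fgf7, Fgf10, Fgfr1 and Fgfr2 were highest in fibroblast-like cells, Fgf1 and Fgf9 in mesothelial-like cells and Fgfr3 in blood endothelial-like cells in both libraries, with wide intervals for the classes of few cells.

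Among the ligands, Fgf7 and Fgf10, paracrine growth factors of epithelium, were the most restricted to fibroblast-like cells as classed by cluster. Fgf10 had 1250 UMIs in ApcMin and 852 in VApcMinL, of which all 1250 and 842 lay in fibroblast-like cells. Its level there was 28.4 CPM (26.9–30.1) in ApcMin and 21.3 CPM (19.9–22.8) in VApcMinL, at least 267-fold higher than in all other ApcMin cells, taking 3 UMIs as their limit, and 64.5-fold higher than in all other VApcMinL cells. Fgf10 was detected in 19.7% of ApcMin and 14.3% of VApcMinL fibroblast-like cells, whose median depths were 13297 and 10532 UMIs, or in 7.86% and 5.42% with every cell thinned to 3000 UMIs. Outside fibroblast-like cells, then, Fgf10 was read in 0 UMIs of ApcMin and 10 UMIs of VApcMinL.

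Fgf7 was read at 60.2 CPM (57.9–62.6) in ApcMin and 63.3 CPM (60.8–65.8) in VApcMinL fibroblast-like cells, in 43.0% and 37.7% of them (16.1% and 15.5% after thinning). This was 169-fold and 24.9-fold above all other cells of the same library. In VApcMinL 1 barcode of 354549 UMIs, placed in the myeloid-like class, held 50 of the 77 Fgf7 UMIs outside fibroblast-like cells. Without it the fold was 70.1 (48.1–107). Fgf7 in myeloid-like cells was 0.888 CPM in ApcMin and 14.6 CPM in VApcMinL, and 1.19 CPM in VApcMinL without that barcode.

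Fgf2, a broadly acting mitogen without a classical signal peptide, was at 56.4 CPM (54.2–58.7) and 35.9 CPM (34.1–37.8) in fibroblast-like cells, in 42.5% and 26.4% of cells (13.4% and 8.62% after thinning). It was not confined to them. In mesothelial-like cells it stood at 122 CPM (82.6–175) in ApcMin and 39.3 CPM (24.9–58.9) in VApcMinL, from 30 and 23 UMIs, and in glial/neuronal-like cells at 64.6 CPM (29.5–122.5) and 94.4 CPM (76.0–116), from 9 and 91 UMIs. In ApcMin, 13 and 10 of the 30 mesothelial-like Fgf2 UMIs came from 2 cells. The ApcMin Fgf2 intervals of mesothelial-like and glial/neuronal-like cells overlapped, as did that of glial/neuronal-like with that of fibroblast-like cells. By value the top class of Fgf2 was thus mesothelial-like in ApcMin, which counting error did not settle, and glial/neuronal-like in VApcMinL, while the top class of each of the other 8 genes had the same name in both libraries. Among classes with at least 30 cells in each library, an alternative added after the data were seen, Fgf2, Fgf9 and Fgf18 were highest in fibroblast-like and Fgf1 in smooth muscle-like cells of both libraries.

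Fgf1, which can activate every FGF receptor, and Fgf9, a ligand produced by mesothelium and epithelium during organ growth, were highest in mesothelial-like cells, a class of only 7 and 35 cells. Fgf1 reached 200 CPM (148–264) in ApcMin and 196 CPM (162–236) in VApcMinL mesothelial-like cells, beside 15.1 CPM (14.0–16.3) and 10.8 CPM (9.78–11.9) in fibroblast-like cells. In ApcMin, 28 of the 49 mesothelial-like Fgf1 UMIs came from 1 cell. Fgf9 was at 184 CPM (134–246) and 143 CPM (114–178) in mesothelial-like cells and at 9.94 CPM (9.03–10.9) and 10.8 CPM (9.83–11.9) in fibroblast-like cells. Smooth muscle-like cells held Fgf1 at 38.9 CPM (16.8–76.7) and 30.4 CPM (14.6–55.9), from 8 and 10 UMIs. Epithelial-like cells held Fgf9 at 7.84 CPM (3.59–14.9) and 9.42 CPM (7.75–11.4), and it was detected in 23.2% of the VApcMinL epithelial-like cells, whose median depth was 41947 UMIs.

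Fgf18, a ligand known from skeletal and lung development, was at 26.3 CPM (24.8–27.9) in ApcMin and 13.0 CPM (11.9–14.1) in VApcMinL fibroblast-like cells, in 19.0% and 9.40% of cells (5.61% and 3.14% after thinning). Mesothelial-like cells were at 32.6 CPM (14.1–64.3) and 35.8 CPM (22.2–54.8), from 8 and 21 UMIs. In ApcMin the Fgf18 intervals of both classes overlapped, so their order was not separated by counting error, and in VApcMinL they did not.

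Among the receptors, Fgfr1, the main receptor of mesenchymal cells, was detected in 87.8% and 82.0% of fibroblast-like cells (48.8% and 46.9% after thinning), at 239 CPM (234.4–244) and 214 CPM (210–219). Glial/neuronal-like cells followed at 143 CPM (87.6–222) and 189 CPM (162–218), then lymphatic endothelial-like cells at 57.5 CPM (32.9–93.4) and 77.8 CPM (62.4–95.8) and mesothelial-like cells at 65.3 and 58.0 CPM. In VApcMinL the Fgfr1 intervals of fibroblast-like and glial/neuronal-like cells overlapped. Blood endothelial-like cells stood at 18.1 CPM (9.66–31.0) in ApcMin and 46.3 CPM (38.9–54.8) in VApcMinL, and epithelial-like cells at 0 and 2.06 CPM.

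Fgfr2 was at 34.1 CPM (32.4–35.8) in ApcMin and 97.2 CPM (94.2–100.4) in VApcMinL fibroblast-like cells, 22.8-fold and 25.4-fold above all other cells. It was read in few of them, 17.5% and 30.8% of cells (7.58% and 17.5% after thinning), beside 0.405% and 1.37% of blood-line cells. Epithelial-like cells, the class in which the epithelial splice form of FGFR2 acts, had 0 UMIs in ApcMin, which allowed up to 3.22 CPM, and 11 UMIs (0.942 CPM) in VApcMinL. Smooth muscle-like cells were at 19.5 CPM (5.30–49.8) and 45.6 CPM (25.5–75.3), from 4 and 15 UMIs, so in ApcMin their Fgfr2 interval overlapped that of fibroblast-like cells, and with a minimum of 6000 UMIs per cell they were the ApcMin class with the highest Fgfr2. These epithelial-like cells are those that passed an Epcam- sort and need not stand for the epithelium of the tissue. The myeloid-like class, which can hold further epithelial-like cells, had Fgfr2 at 4.22 and 12.7 CPM, from 19 and 47 UMIs. Which of its cells held these UMIs was not tested.

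Fgfr3 had its highest level in blood endothelial-like cells, at 22.3 CPM (12.8–36.2) in ApcMin and 29.3 CPM (23.4–36.2) in VApcMinL, from 16 and 86 UMIs. It was detected in 12.7% and 11.7% of these cells (8.82% and 6.62% after thinning). In fibroblast-like cells Fgfr3 was at 1.57 CPM (1.22–1.99) and 1.80 CPM (1.40–2.27), in 1.85% and 1.80% of cells, and in epithelial-like cells at 5.23 and 6.34 CPM. The blood endothelial-like level was 18.1-fold and 12.1-fold above that of all other cells, but its interval overlapped that of the next class, mesothelial-like cells in ApcMin (8.16 CPM from 2 UMIs) and smooth muscle-like cells in VApcMinL (12.2 CPM from 4 UMIs). Blood endothelial-like cells held Fgf1 at 8.37 and 6.47 CPM, whereas lymphatic endothelial-like cells had 0 UMIs of Fgf1 and Fgf2 in both libraries.

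Fibroblast-like cells were clustered again without the 9 genes into 11 sub-clusters, numbered by size and called here by a leading gene. They are the Plau (865 and 699 cells), Has1 (774 and 552), Grem1 (495 and 688), Cxcl13 (343 and 766), Pi16 (324 and 164), Mmp10 (119 and 334), Scg2 (126 and 104), Wif1 (25 and 126) and Bmp5 (9 and 65) sub-clusters, of which the Cxcl13 and Mmp10 sub-clusters also had Adamdec1 among their leading genes. The remaining pair were led by immune genes (44 and 53 cells) and by hemoglobin genes (69 and 12 cells). The fibroblast gene Pdgfra was detected in 89.6% to 100% of the cells of every sub-cluster. Values for the Wif1 and Bmp5 sub-clusters in ApcMin rest on few cells, and they were left out of the counts of sub-clusters with at least 30 cells in each library.

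**Figure D2:**
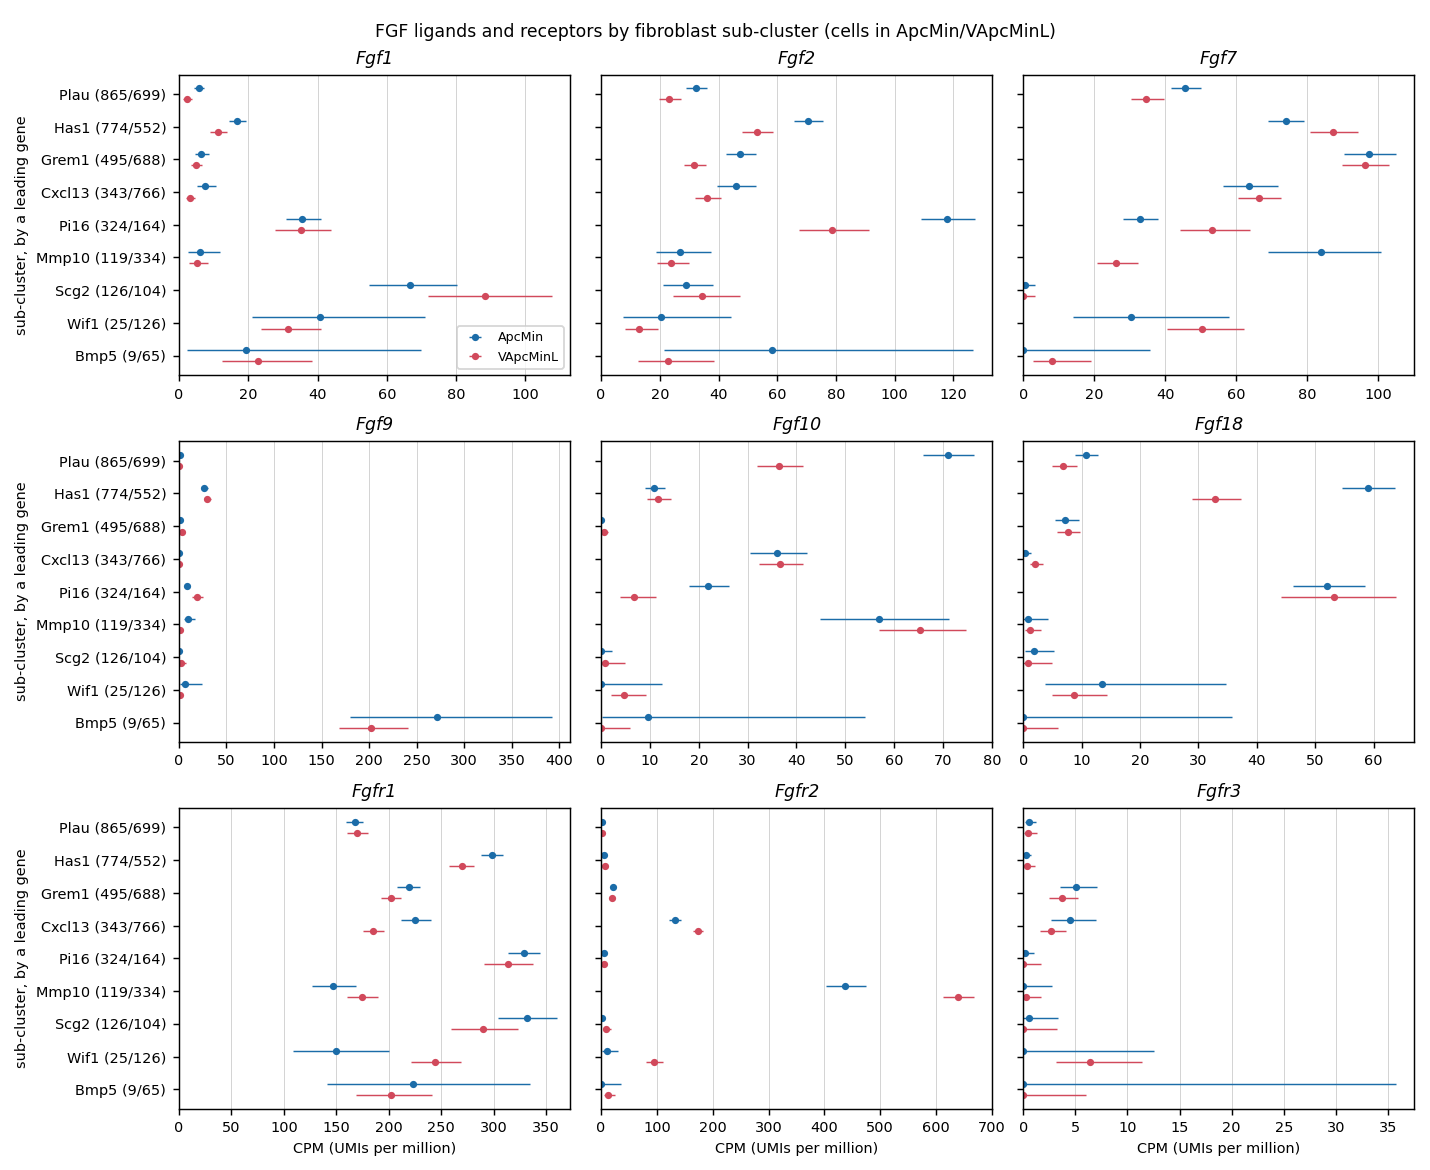
Level of each FGF ligand and receptor gene (CPM, linear axis) in the fibroblast sub-clusters, named by a leading gene, of the ApcMin and VApcMinL libraries; points are summed UMIs of a sub-cluster in 1 library and bars are exact 95% Poisson intervals. Fgfr2 was read mostly in the Mmp10 and Cxcl13 sub-clusters, Fgf10 in the Plau, Mmp10 and Cxcl13 sub-clusters and Fgf9 in the Has1 and Bmp5 sub-clusters.

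Fgfr2 was unevenly spread over the sub-clusters. In the Mmp10 sub-cluster it was at 438 CPM (403–475) in ApcMin and 640 CPM (613–668) in VApcMinL, in 83.2% and 92.2% of cells, and in the Cxcl13 sub-cluster at 132 CPM (121–143) and 174 CPM (164–184), in 67.3% and 64.5% of cells. The Grem1 sub-cluster was at 21.3 and 20.5 CPM, and the Has1, Pi16 and Plau sub-clusters lay between 1.37 and 6.37 CPM in both libraries. The blood-line background for this gene was 0.548 CPM (0.274–0.981) in ApcMin and 2.33 CPM (1.40–3.64) in VApcMinL. Plau cells, at 1.44 and 1.37 CPM, had intervals that overlapped it, and Has1 cells, at 5.58 CPM (4.29–7.14) and 6.37 CPM (4.69–8.44), lay above it in both libraries. In the Wif1 sub-cluster Fgfr2 was at 94.6 CPM (80.7–110) in VApcMinL and at 10.2 CPM, from 3 UMIs, in the 25 ApcMin cells. As clustered, Fgfr2 transcripts of fibroblast-like cells were thus concentrated in both sub-clusters that shared Adamdec1, a gene of lamina propria fibroblasts. With each cell placed by its own marker genes instead, Fgfr2 was highest in the subset named by subepithelial markers, Wif1 and Bmp5 among them, in both libraries.

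Fgf10 was read in the Mmp10 and Cxcl13 sub-clusters and in Plau cells. In the Plau sub-cluster it was at 71.0 CPM (65.9–76.3) in ApcMin and 36.4 CPM (32.0–41.3) in VApcMinL, in the Mmp10 sub-cluster at 56.9 CPM (44.8–71.2) and 65.3 CPM (56.8–74.6), and in the Cxcl13 sub-cluster at 35.9 CPM (30.5–42.1) and 36.6 CPM (32.3–41.3). The Grem1 sub-cluster, whose leading gene encodes the BMP antagonist Gremlin 1, had 0 Fgf10 UMIs in 495 ApcMin cells (at most 0.523 CPM) and 5 UMIs (0.596 CPM) in 688 VApcMinL cells. The Scg2 sub-cluster had 0 and 1 UMIs. Ligand and receptor were read in the same cell in 47 of 119 (39.5%) and 124 of 334 (37.1%) Mmp10 cells and in 62 of 343 (18.1%) and 124 of 766 (16.2%) Cxcl13 cells, but in only 5 of 865 and 1 of 699 Plau cells, where Fgf10 was present without Fgfr2.

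Fgf7 had the opposite order to Fgf10 at the Grem1 sub-cluster. It was highest there, at 97.4 CPM (90.3–105) in ApcMin and 96.3 CPM (89.8–103) in VApcMinL, in 67.7% and 61.3% of cells, followed by the Has1 sub-cluster at 74.0 CPM (69.1–79.2) and 87.3 CPM (80.7–94.2) and the Cxcl13 sub-cluster at 63.6 and 66.5 CPM. In VApcMinL the Fgf7 intervals of the Grem1 and Has1 sub-clusters overlapped. The Scg2 sub-cluster had 1 Fgf7 UMI in ApcMin and 0 in VApcMinL. In the Mmp10 sub-cluster Fgf7 stood at 83.8 and 26.1 CPM, but 79 of 112 UMIs in ApcMin and 45 of 86 in VApcMinL came from 1 cell each, and without those cells the values were 25.05 CPM (17.2–35.2) and 12.5 CPM (8.98–16.97).

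Fgf2 was highest in the Pi16 sub-cluster, whose leading genes Pi16 and Dpp4 mark adventitial fibroblasts, at 118 CPM (109–127) in ApcMin and 78.5 CPM (67.3–91.1) in VApcMinL. Has1 cells followed at 70.5 and 53.2 CPM, and every sub-cluster with at least 30 cells per library had Fgf2 UMIs. The spread of Fgf2 among the 7 largest sub-clusters, from 26.9 to 118 CPM in ApcMin and from 23.2 to 78.5 CPM in VApcMinL, was narrower than that of Fgf10 or Fgfr2. Fgf18 was likewise read in the Has1 sub-cluster, at 59.0 CPM (54.6–63.7) and 32.9 CPM (28.9–37.3), and in the Pi16 sub-cluster, at 52.1 CPM (46.2–58.5) and 53.3 CPM (44.1–63.8). In ApcMin these Fgf18 intervals overlapped and in VApcMinL the Pi16 sub-cluster was higher. Fgf18 was at 10.7 CPM or less in the Plau and Grem1 sub-clusters and at 2.09 CPM or less in the Cxcl13 and Mmp10 sub-clusters of both libraries, which were the sub-clusters with the most Fgfr2.

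Fgf1 was highest in the Scg2 sub-cluster, at 66.7 CPM (54.8–80.3) in ApcMin and 88.5 CPM (72.0–108) in VApcMinL, in 33.3% and 19.2% of cells. In VApcMinL 10 of the 104 cells held 90% of these Fgf1 UMIs, 22 of 100 in 1 cell of 74793 UMIs, and in ApcMin 10 cells held 57.7%. The ApcMin interval overlapped that of the 25 Wif1 cells, at 40.7 CPM (21.0–71.1). The Pi16 sub-cluster had 35.6 and 35.2 CPM, and the Plau, Grem1 and Cxcl13 sub-clusters had between 2.28 and 7.52 CPM. Scg2 cells therefore carried Fgf1 while Fgf7 and Fgf10 were at or near 0 UMIs in them. Fgf9 was read in the Has1 sub-cluster, at 26.8 CPM (23.9–30.05) and 29.8 CPM (26.1–34.0), and was at 0 UMIs in the Cxcl13 sub-cluster of both libraries. Its level in the Bmp5 sub-cluster, which expressed several BMP genes, was 271 CPM (180–392) from 28 UMIs in 9 ApcMin cells and 203 CPM (168–241) from 124 UMIs in 65 VApcMinL cells, detected in 66.7% and 70.8% of them. This small sub-cluster had more Fgf9 per counted UMI than any other fibroblast sub-cluster in both libraries.

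Fgfr1 varied least. Over the Plau, Has1, Grem1, Cxcl13, Pi16, Mmp10 and Scg2 sub-clusters it ranged from 147 CPM (127–169) in Mmp10 cells to 331 CPM (304–360) in Scg2 cells of ApcMin, and from 170 CPM in Plau cells to 313 CPM (290–337) in Pi16 cells of VApcMinL. Scg2 and Pi16 cells had overlapping Fgfr1 intervals in each library, at 331 and 329 CPM in ApcMin and at 290 and 313 CPM in VApcMinL. The Mmp10 interval overlapped that of Plau cells, at 167 CPM (160–175) in ApcMin and 170 CPM in VApcMinL, so which had the lowest Fgfr1 was not settled. Fgfr3 was low in all, with 5.10 and 3.69 CPM in Grem1 cells. Of the 9 genes, 5 were highest in the same sub-cluster in both libraries among the 8 with at least 30 cells in each, namely Fgf1 (Scg2), Fgf2 (Pi16), Fgf7 (Grem1), Fgf9 (Has1) and Fgfr2 (Mmp10).

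The comparison of VApcMinL with ApcMin asks how stromal gene expression differed when Lef1 was deleted in the epithelium of ApcMin mice. In fibroblast-like cells, Fgfr2 was higher in VApcMinL, with a ratio of 2.85 (2.69–3.03) from 34.1 and 97.2 CPM, and Fgf18 and Fgf2 were lower, with ratios of 0.492 (0.443–0.547) from 26.3 and 13.0 CPM and 0.636 (0.595–0.679) from 56.4 and 35.9 CPM. These 3 of the 9 genes were at least 1.5-fold apart, beside 16.0% of the 14099 genes with at least 50 UMIs in these cells. Fgf1 and Fgf10 were lower by less than this, at 0.712 (0.629–0.806) and 0.749 (0.686–0.818), and Fgfr1 stood at 0.897 (0.871–0.923). For Fgf7, Fgf9 and Fgfr3 the ratios were 1.05 (0.994–1.11), 1.09 (0.951–1.25) and 1.14 (0.810–1.62), with intervals that included 1. The median absolute log2 ratio was 0.42 over the 9 genes and 0.20 over all genes tested.

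**Figure D3:**
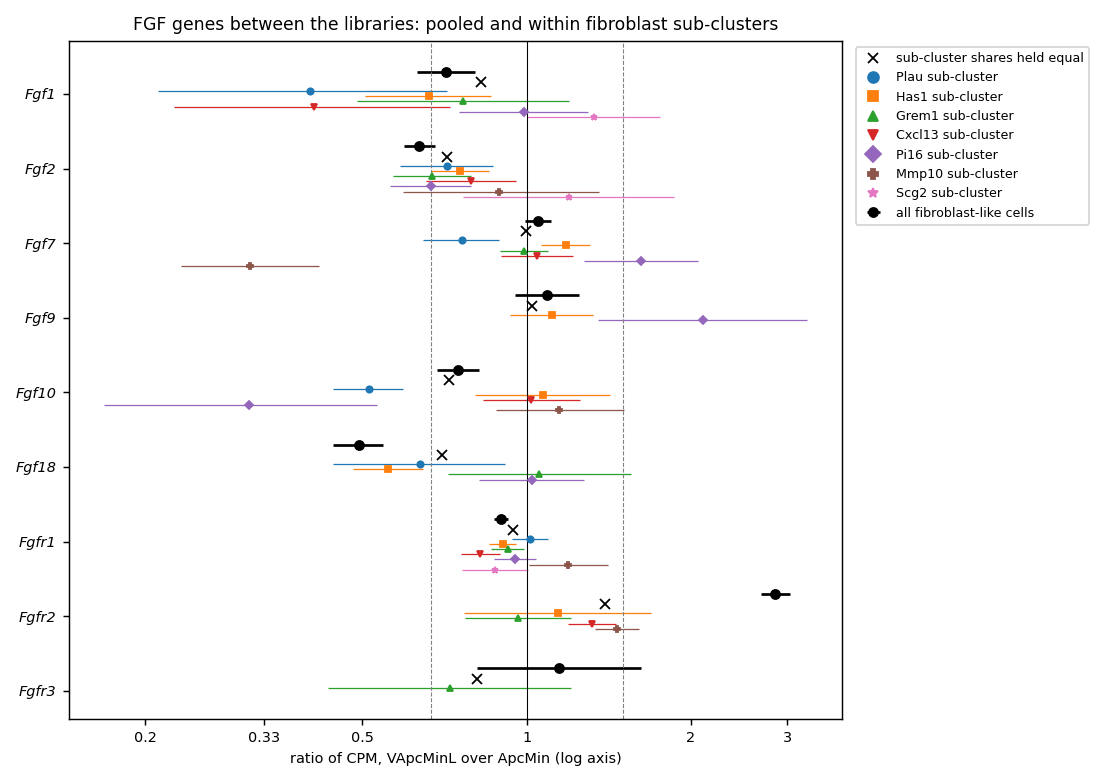
Ratio of CPM, VApcMinL over ApcMin (log scale), of each FGF ligand and receptor gene in all fibroblast-like cells and within fibroblast sub-clusters; bars are exact 95% intervals for counting error, dashed lines mark 1.5-fold either way, and crosses are the ratio with sub-cluster shares held equal. Fgfr2 was 2.85 over all fibroblast-like cells but 1.46 and 1.32 within the Mmp10 and Cxcl13 sub-clusters.

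The sub-clusters took different shares of the fibroblast-like cells of each library, and this moved with the pooled ratios. The Cxcl13 and Mmp10 sub-clusters, where Fgfr2 was read, were 10.7% and 3.73% of ApcMin and 21.5% and 9.37% of VApcMinL fibroblast-like cells, and the Has1 and Pi16 sub-clusters, where Fgf18 was read, were 24.2% and 10.1% of ApcMin and 15.5% and 4.60% of VApcMinL. With ApcMin levels kept and the VApcMinL shares put in their place, the Fgfr2 ratio was 2.003 and the Fgf18 ratio 0.712. With the shares of sub-clusters held equal, an alternative chosen after the data were seen, the ratios were 1.39 for Fgfr2, 0.699 for Fgf18, 0.716 for Fgf2, 0.825 for Fgf1, 0.721 for Fgf10 and 0.945 for Fgfr1, and 0 of the 9 genes were at least 1.5-fold apart. In a pooled sum, a different mix of cell types and a different level per cell cannot be told apart, and the cut of a dissection or sort can set such shares.

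Within the sub-clusters Fgfr2 remained higher in VApcMinL where it was abundant, at 1.46 (1.33–1.60) in Mmp10 cells and 1.32 (1.19–1.46) in Cxcl13 cells, and stood at 0.964 in Grem1 cells. Fgf2 was lower in VApcMinL in the 5 largest sub-clusters, at 0.716 (0.587–0.869) in Plau, 0.754 (0.667–0.851) in Has1, 0.672 (0.570–0.792) in Grem1, 0.790 (0.653–0.956) in Cxcl13 and 0.667 (0.561–0.790) in Pi16 cells, and stood at 1.20 in Scg2 cells. Fgf18 was lower in Has1 cells, at 0.557 (0.480–0.646), and in Plau cells, at 0.639 (0.441–0.911), but stood at 1.02 in Pi16 and 1.05 in Grem1 cells. Fgf1 was lower in Plau cells, at 0.401 (0.211–0.715), Has1 cells, at 0.662 (0.506–0.860), and Cxcl13 cells, at 0.407 (0.225–0.723), and stood at 0.989 in Pi16 cells. Fgf9 was higher in Pi16 cells, at 2.102 (1.35–3.26), where 10 cells of each library held 72.9% and 78.0% of its UMIs. Fgf10 was lower in Plau cells, at 0.513 (0.442–0.595), and in Pi16 cells, at 0.310 (0.168–0.532), but stood at 1.02 in Cxcl13 and 1.15 in Mmp10 cells. Fgf7 was higher in Pi16 cells at 1.62. In Mmp10 cells its ratio was 0.311, and 0.499 (0.308–0.815) without the 2 cells of high Fgf7 count. It was 2.89 (1.45–6.54) without cells with a UMI of Barx1, Six2 or Eya4, genes described next. That step took out 21 ApcMin cells with 103 of the 112 Fgf7 UMIs, among them the cell of 79 UMIs. The VApcMinL cell of 45 UMIs stayed in, among 80 UMIs. The 2.89 thus depends on where 2 single cells fell, and a ratio without both was not taken. Members past 1.5-fold numbered 3 of 6 in Plau cells (all genes 9.53%), 2 of 8 in Has1 (12.5%), 0 of 7 in Grem1 (9.62%), 1 of 6 in Cxcl13 (13.1%), 3 of 7 in Pi16 (10.1%), 1 of 5 in Mmp10 (14.8%) and 0 of 3 in Scg2 cells (17.6%).

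Fgf10 levels differed between cells with and without a UMI of Barx1, Six2 or Eya4, and so did those of some other members. In ApcMin fibroblast-like cells, Fgfr2 was at 11.0 CPM with such a UMI and 39.9 CPM without. Fgf2 was at 69.6 and 53.1 CPM in the same cells, and Fgf18 at 25.9 and 26.4 CPM. Barx1, a homeobox gene of stomach mesenchyme, was at 38.6 CPM (36.8–40.5) in ApcMin and 2.25 CPM (1.81–2.77) in VApcMinL fibroblast-like cells, and a UMI of Barx1, Six2 or Eya4 was read in 664 ApcMin cells (20.8%) and 65 VApcMinL cells (1.82%). By sub-cluster, Barx1 was at 81.3 and 4.25 CPM in Plau cells, 83.1 and 2.43 CPM in Mmp10 cells, 55.2 and 5.42 CPM in Pi16 cells and 29.7 and 4.24 CPM in Has1 cells, while Scg2 cells had 0 UMIs in both libraries. Within ApcMin Plau cells, Fgf10 was at 106 CPM (95.9–116) in the 322 cells with such a UMI and 48.1 CPM (42.8–53.9) in those without, and within VApcMinL Plau cells at 78.5 CPM (42.9–132) in 16 cells with and 35.2 CPM (30.8–40.2) in those without. The same order held in ApcMin Has1 cells (30.3 against 7.42 CPM), VApcMinL Has1 cells (56.1 against 9.35 CPM) and ApcMin Pi16 cells (35.5 against 12.2 CPM). In VApcMinL Pi16 cells the values were 7.58 CPM (0.192–42.2), from 1 UMI in 11 cells, against 6.72 CPM. In Mmp10 cells of ApcMin the order was the reverse, at 10.8 CPM (2.22–31.5) in 21 cells with such a UMI and 69.0 CPM (54.1–86.8) in 98 without. Only 3 Mmp10 cells of VApcMinL had one, with 0 Fgf10 UMIs.

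**Figure D4:**
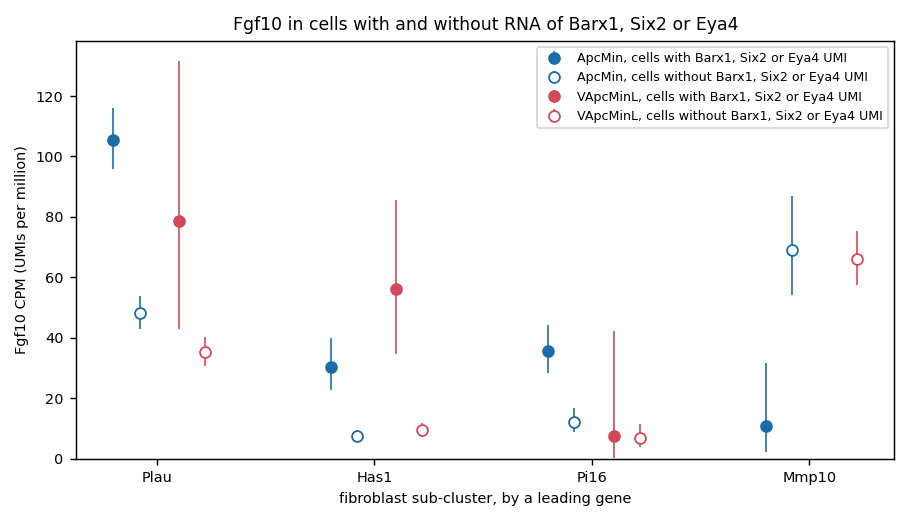
Level of Fgf10 (CPM) in cells with (filled) and without (open) a UMI of Barx1, Six2 or Eya4, in 4 fibroblast sub-clusters of the ApcMin and VApcMinL libraries; bars are exact 95% Poisson intervals, and VApcMinL Mmp10 cells with such a UMI, 3 in number, are not drawn. In Plau cells Fgf10 was higher in cells with such a UMI, and in ApcMin Mmp10 cells it was lower.

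Over all fibroblast-like cells Fgf10 was at 68.0 CPM (62.7–73.6) in ApcMin cells with a UMI of Barx1, Six2 or Eya4 and 18.4 CPM (16.99–19.9) in those without, and at 56.5 CPM (41.9–74.4) and 20.5 CPM (19.1–22.0) in VApcMinL. Without these cells, an alternative added after the data were seen, the Fgf10 ratio between the libraries was 1.12 (1.004–1.24) in place of 0.749, in Plau cells 0.732 (0.614–0.873) in place of 0.513, and in Pi16 cells 0.551 (0.276–1.04) in place of 0.310. The ratios of Fgf2, Fgf18 and Fgfr2 over all fibroblast-like cells without them were 0.654, 0.475 and 2.46. The Fgfr2 ratio was then 1.25 (1.14–1.38) in place of 1.46 in Mmp10 cells. In Cxcl13 cells it was 1.34 (1.21–1.48) in place of 1.32. The Fgf18 ratio in Plau cells turned from 0.639 to 1.13 (0.717–1.77). The Fgf9 ratio in Pi16 cells was 1.46 (0.931–2.30) in place of 2.102, with an interval that included 1. Cells were divided by a UMI of genes read at low depth, so cells without one can still express them.

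The other genes of the pathway were counted by lists in fibroblast-like cells, with the same 1.5-fold limit and 50 UMIs, and each count is to be read beside the 16.0% of all genes past that limit. Of 9 other ligands 1 passed the limit of UMIs, Fgf16 with 36 ApcMin and 15 VApcMinL UMIs, which was lower. Of 3 endocrine ligands 2 passed, and the phosphate hormone gene Fgf23 was higher in VApcMinL at 2.71 against 0.364 CPM, a ratio of 7.44 (4.38–13.5) from 107 and 16 UMIs, while Fgf21 stood at 0.810 and 1.07 CPM. The VApcMinL Fgf23 UMIs came from 48 cells, mostly of the Has1 (71 UMIs) and Grem1 (28 UMIs) sub-clusters. All 4 genes of intracellular FGF homologues passed and 2 were higher, Fgf14 with a ratio of 4.75 at 0.250 and 1.19 CPM and Fgf12 with a ratio of 1.81, whereas Fgf11 was at 5.89 and 4.28 CPM and Fgf13 at 3.18 and 4.50 CPM. Of 4 other receptors and co-receptors 3 passed, with Fgfr4 higher at a ratio of 1.73, the Klotho co-receptor gene Kl lower at a ratio of 0.403, and the kinase-less receptor gene Fgfrl1 at 10.6 and 9.06 CPM.

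Heparan sulfate proteoglycans and FGF-binding proteins, which hold the ligand at the receptor, passed in 10 of 11 genes, with 1 higher and 0 lower. Gpc3, Sdc2 and Hspg2 were at 341 and 282, 322 and 263, and 312 and 261 CPM in ApcMin and VApcMinL, and Sdc1 was the one past the limit, at 12.3 and 21.1 CPM. Sdc1 is also a gene of plasma cells, and its source was not tested. Enzymes of heparan sulfate, among them the sulfatase genes Sulf2 (233 and 193 CPM) and Sulf1 (94.4 and 79.8 CPM), passed in 9 of 10 genes with 0 past 1.5-fold either way. The 8 receptor adaptors all passed, with 0 past 1.5-fold, among them Ptpn11 at 74.1 and 66.9 CPM and Shc1 at 69.7 and 73.5 CPM.

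Feedback inhibitors and target genes of FGF signalling passed in 15 of 16 genes, of which 2 were higher and 1 was lower, a share near the 16.0% of all genes. The Sprouty inhibitors were at 137 and 129 CPM for Spry1, 124 and 142 CPM for Spry2 and 46.6 CPM in both libraries for Spry4, and the related Spred1 at 143 and 128 CPM. The MAPK phosphatase gene Dusp6 stood at 41.6 and 36.4 CPM, Dusp5 at 21.1 and 22.8 CPM and Dusp4, one of the higher pair, at 1.23 and 2.58 CPM. Of the ETS factor genes, Etv1 was at 46.1 and 56.4 CPM, Etv5 at 15.5 and 12.3 CPM and Etv4, the other higher gene, at 0.819 and 1.26 CPM, with a ratio of 1.54 whose interval (0.986–2.44) included 1. The lower gene was Flrt2, at 107 and 62.4 CPM. By sub-cluster Spry1 was highest in Plau cells, at 421 and 495 CPM, and Etv1 in Scg2 cells, at 446 and 475 CPM, whereas Dusp6 was highest in glial/neuronal-like cells, at 251 and 274 CPM.

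Genes whose levels ran most like those of each member were sought over 41 sums of a class or fibroblast sub-cluster in 1 library, among 13510 genes, by Pearson's r of log2(CPM + 1). The sums share libraries and cell types, so r is a description. Fgfr1 ran with Fstl1 (0.970), Sgce (0.966) and Dsel (0.964), and Fgf2 with Rab34 (0.936), Meg3 (0.935) and Olfml1 (0.932). Fgf7 ran with Gm9947 (0.904), Scara3 (0.903) and Fbxl13 (0.896), Fgf18 with Igfbp6 (0.872), Vit (0.854) and Has1 (0.844), and Fgfr2 with Scube1 (0.844), Foxf2 (0.842) and Hhip (0.839). Fgf10 ran with Sntg1 (0.841), Gabra3 (0.826) and Kcnip3 (0.803), and Fgf1 with Kif7 (0.7999), Map1a (0.789) and Twist1 (0.781). The lowest likeness was found for Fgfr3, with Tmem252 (0.708), Tox3 (0.683) and Nostrin (0.679), and Fgf9, with Gpr39 (0.699), Bmp3 (0.696) and Tmem98 (0.620).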

How the data were processed

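Processed 10x Genomics 3' v3 data of 2 libraries, 1 per genotype, were used as the authors deposited them, as raw UMI counts per gene and barcode. The file headers name Cell Ranger 3.1.0, whereas the submitters' processing notes name Cell Ranger 2.1.1 and Seurat 3.1.1, and this was not resolved. Multi-mapped reads and strand handling are not given in the sources used here.

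Barcodes with at least 3000 UMIs and at most 20% mitochondrial UMIs were kept. Doublets were taken as a fixed share, 0.8% per 1000 cells, by Scrublet score in scanpy 1.11.5 (348 and 345 cells), since the threshold Scrublet set itself marked 0 and 1. Cells were log-normalized, integrated by canonical correlation and clustered in Seurat 5.3.0 (R 4.3.3; 20 components, 20 neighbours, resolution 0.2 for all cells and 0.4 for fibroblast-like cells). The 9 genes took no part in clustering or naming. Classes were named from marker lists, so names can differ from those of the study.

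UMIs were summed per class and library in Python 3.11.15 with pandas 2.3.3, numpy 2.4.6, scipy 1.17.1 and anndata 0.12.19, and plotted with matplotlib 3.10.9. Levels carry exact 95% Poisson intervals, ratios exact conditional binomial intervals, and a count of 0 was given a limit of 3 counts where a fold was taken. Shares of cells are also given with all cells thinned to 3000 UMIs. Free RNA was read from barcodes ranked 45000 to 90000 by UMIs. No test was run between the libraries. The intervals and the 1.5-fold limit were checked on simulated Poisson counts, which hold no variation between cells or mice. Doublet removal, clustering, naming and thinning were not checked in this way.

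All 9 members were named. Of each pathway list, up to 3 genes with the highest level and up to 3 with the largest log2 ratio, and the Spry, Dusp and Etv genes with at least 50 UMIs, could be named. The 3 most similar genes were taken over sums with at least 20 cells, among genes with at least 200 UMIs. The members and the lists were chosen with earlier results of these data known. Barx1, Six2 and Eya4 were chosen after values were seen, as were Fgf7 counts per cell of 40 or more. Alternatives covered the minimum of UMIs (6000), the mitochondrial limit (10%), doublets, resolution, integration, naming of single cells, means over cells, free RNA and scaling.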

Additional observations from a re-analysis of the deposited data

How the results depend on the processing

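No paired analysis was possible because there is only 1 library per genotype. The count of genes highest in the same class in both libraries was 8 of 9. It was 4 when each cell was classed by its own marker genes. There Fgfr1 was highest in pericyte-like and Fgfr2 in smooth muscle-like cells of both libraries. Fgf10 was highest in adipocyte-like cells of ApcMin and mast-like cells of VApcMinL. Fgf7 was highest in adipocyte-like cells of ApcMin and fibroblast-like cells of VApcMinL. Fgf1 and Fgf9 were highest in glial/neuronal-like and smooth muscle-like cells of ApcMin, and in mesothelial-like cells of VApcMinL. The count was 7 at a minimum of 6000 UMIs, where Fgfr2 was highest in smooth muscle-like cells of ApcMin. It was 9 among classes with at least 30 cells in each library. There Fgf1 was highest in smooth muscle-like and Fgf2, Fgf9 and Fgf18 in fibroblast-like cells. The count of those highest in the same fibroblast sub-cluster, 5 of 9, was 8 without integration and 8 without cells with a UMI of Barx1, Six2 or Eya4, an alternative added after the data were seen, as was the one on classes with at least 30 cells. At resolutions of 0.5 and 0.8, and also with doublets kept, the sub-cluster with the highest Fgf7 differed between the libraries. When each cell was placed by its own marker genes, the fibroblast subset with the highest level changed for some members. In both libraries Fgfr2 was then highest in the subset of subepithelial markers and Fgf1 in that of Pi16 adventitial markers. Fgf2 stayed highest in the Pi16 and Fgf7 in the Grem1 subset of both libraries. The count past 1.5-fold, 3 of 9, was 0 with sub-cluster shares held equal, an alternative also added later. The cause of these changes was not tested. Over 13 alternatives Fgf18 and Fgfr2 were past 1.5-fold in 12 and Fgf2 in 11, and Fgf1 was past it in 3. The log2 ratio ranged from -1.08 to -0.52 for Fgf18, from 0.48 to 1.54 for Fgfr2, from -0.68 to -0.48 for Fgf2 and from -0.47 to 0.16 for Fgf10, the positive value being without Barx1, Six2 or Eya4 cells. Of the values of all 9 genes between the libraries under these alternatives, 105 moved by less than counting error and 12 by more. Values of a class over other cells were taken under fewer of the alternatives, and of these 81 moved by less and 63 by more. Depth limits values of classes with few cells most, such as mesothelial-like cells.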
